A study of Homo sapiens with 16 samples.

Results

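The heat shock proteins and their DNAJ partners are the protein-folding machines of the cell. All protein-coding genes with a symbol of the HSPA, HSPB, HSPD1, HSPE1, HSPH1, HSP90 or DNAJA, DNAJB and DNAJC series were taken, by symbol alone. This gave 74 genes in GENCODE 44, of which 69 had a row among the 34228 genes of the count table. DNAJB7, DNAJB8, HSPB2, HSPB3 and the read-through gene HSPB2-C11orf52 were not analysed here. The 69 members were followed by RNA-Seq in 451Lu-R and 1205Lu-R, human melanoma cell lines resistant to BRAF inhibitors (BRAFi). Both lines had been selected over months in rising doses of the BRAFi PLX4032 (vemurafenib), and resistant cells were maintained in 5 μM PLX4032. Cells of each line received 2.5 μM corin or the vehicle DMSO for 24 h, and there were 2 libraries for each of the 4 groups. The study lists DMSO, corin, PLX4032 and both drugs together as separate 24 h treatments. It describes its reference expression as free of PLX4032 and corin. The DMSO and corin groups used here are thus the arms without added PLX4032. How long before the treatment the maintenance drug was withdrawn is not given in the sources used here. Corin is a hybrid inhibitor of the CoREST corepressor complex, directed at its histone deacetylases and its demethylase LSD1. Nothing in the sources used here says whether the 2 libraries of a group came from separate cultures, so p-values measure only the spread between these libraries, which may be technical.

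HSP70 proteins (HSPA genes) bind unfolded stretches of other proteins in a cycle driven by ATP. A DNAJ protein delivers the client and triggers ATP hydrolysis, and a nucleotide exchange factor, such as a member of the HSP110 group (HSPH1, HSPA4 and HSPA4L), resets the cycle. HSP90 acts later, on kinases, steroid receptors and other nearly folded clients, and mutant BRAF is a known HSP90 client. HSP60 and HSP10 (HSPD1 and HSPE1) form the folding chamber of mitochondria. The small heat shock proteins (HSPB genes) hold unfolded proteins without ATP. Many of these genes are switched on by heat shock factor 1 (HSF1), while those of the endoplasmic reticulum (ER) answer to the unfolded protein response.

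Libraries held 9516687 to 11797788 estimated counts, and 3 counts, taken here as the floor of detection, corresponded to 0.254 to 0.315 CPM, the unit of read counts scaled to a common library total. Levels below are CPM after TMM normalisation, the scaling used by edgeR. The labelled cell type was checked on 8 melanocyte lineage genes. Their summed level was 1.31e+04 CPM in each DMSO library and 1.22e+04 CPM in each corin library of 451Lu-R. In 1205Lu-R the same sum was 8.60 and 8.94 CPM under DMSO and 22.7 and 26.0 CPM under corin, and TYR and SOX10 had no count in any 1205Lu-R library. The markers of melanocytes were thus nearly absent from 1205Lu-R, which the study classes as an MITF-low, AXL-high line. In 451Lu-R the largest part of the sum was PMEL, and the sum hides larger shifts of single genes. There MITF went from 747.7 and 764.5 CPM under DMSO to 298.7 and 296.7 CPM under corin. SOX10 went from 739.1 and 706.8 to 241.1 and 244.7 CPM, and DCT from 1593 and 1587 to 2800 and 2757 CPM. Of the 8 genes, 7 fell and 1, DCT, rose in 451Lu-R in edgeR. Summed leukocyte and keratinocyte markers stayed at or under 5.64 CPM in every library. Summed endothelial markers (PECAM1, CDH5 and VWF) ran from 1.28 to 27.0 CPM, and their sum was higher under corin in both lines through VWF. In 1205Lu-R VWF went from 1.69 and 1.07 to 18.6 and 17.4 CPM, while PECAM1 went from 9.41 and 10.2 to 8.43 and 5.90 CPM. The part of these shifts in the results was not tested.

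Summed, the members took a larger share of the RNA under corin, a gain carried by few genes. In 451Lu-R they held 1.39% and 1.40% of all counts in the DMSO libraries and 1.51% and 1.51% in the corin libraries. In 1205Lu-R they held 1.61% and 1.61% under DMSO and 1.99% and 1.99% under corin. In neither line did the libraries of the 2 treatments overlap. The growth came from different groups, and within them from few genes. In 451Lu-R HSP90AA1 alone went from 24032.8 and 21496.2 estimated counts under DMSO to 60804.0 and 51028.9 under corin. All members together went from 151267 and 135315 to 178707 and 150528 there. In 1205Lu-R HSPA8 went from 28173.6 and 27156.0 to 40720.0 and 46898.2, and HSPA5 from 12133.8 and 12179.1 to 24643.8 and 28545.5. HSP90AB1, HSPA1A, HSPA1B, HSPA9 and HSPA14 fell in both lines in edgeR. The 3 HSP90 genes went from 0.508% and 0.514% to 0.748% and 0.742% of the counts in 451Lu-R, where the 12 HSP70 genes went from 0.399% and 0.403% to 0.343% and 0.338%. In 1205Lu-R the HSP70 genes went from 0.462% and 0.468% to 0.785% and 0.778%, and the HSP90 genes from 0.481% and 0.485% to 0.619% and 0.617%. The HSP110, HSP60 with HSP10, and small heat shock protein groups each took a smaller share under corin in both lines. These shares are of bulk RNA, in which fewer cells of a kind and less RNA per cell cannot be told apart.

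**Figure D1:**
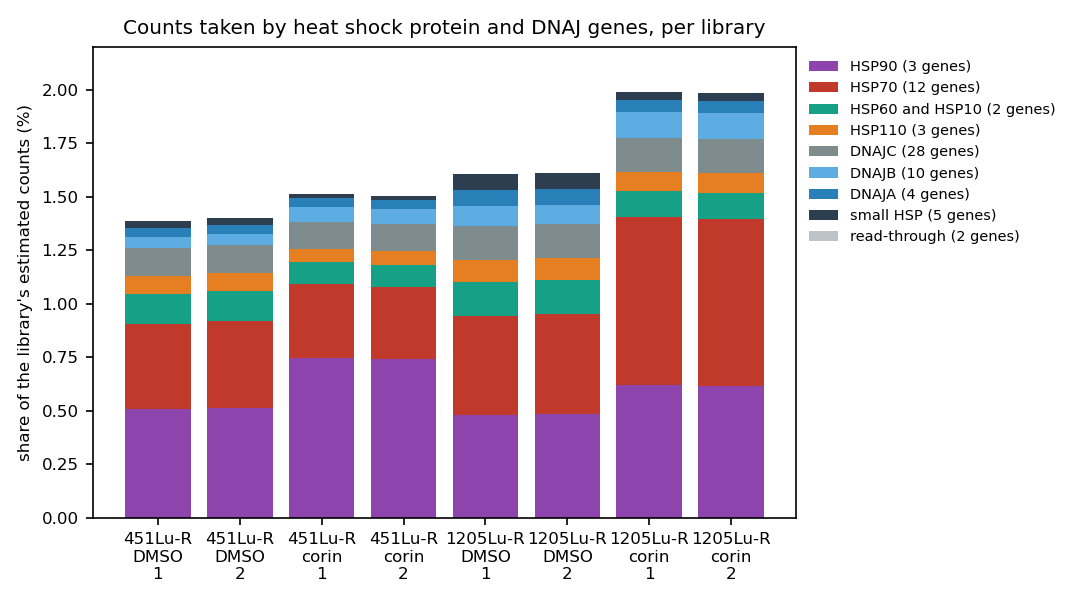
Share of each library's estimated counts (percent, bars stacked from 0) taken by each group of heat shock protein and DNAJ genes, for the 8 libraries. The total stood at 1.39% to 1.40% under DMSO and 1.51% under corin in 451Lu-R, and at 1.61% under DMSO and 1.99% under corin in 1205Lu-R, where the HSP70 bar lengthened most.

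Levels of different genes were compared only per kilobase of transcript (mean CPM per kb, canonical transcript length). Without corin, the constitutive HSP70 gene HSPA8 came first in both lines, at 1041 CPM per kb in 451Lu-R and 1171 in 1205Lu-R. Next in 451Lu-R came HSP90AB1 (782.7), HSP90AA1 (654), HSPD1 (508), HSPE1 (348), HSPB1 (325), HSP90B1 (274) and HSPA5 (155.0). In 1205Lu-R the next were HSP90AB1 (1008), HSPB1 (976), HSPD1 (592), HSPE1 (539.7), HSP90B1 (438), HSP90AA1 (379.6) and HSPA5 (297). Under corin HSP90AA1 took the first place in 451Lu-R, at 1650 CPM per kb against 930 for HSPA8. In 1205Lu-R HSPA8 stayed first at 1836 CPM per kb, ahead of HSP90AB1 (906), HSP90AA1 (765) and HSPA5 (643).

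Corin changed most of the members that could be tested, in both directions, as it did most of all genes tested. In 451Lu-R, 57 members passed the filter on low counts. Of these, 23 rose (40.4%), 26 fell (45.6%) and 8 did not pass the test, at a Benjamini-Hochberg FDR under 0.05 in edgeR's quasi-likelihood test. Among all 14530 genes tested there, 41.3% rose and 38.6% fell. In 1205Lu-R, 60 members were tested, 21 rose (35.0%), 26 fell (43.3%) and 13 did not pass, against 40.4% higher and 37.8% lower among all 14563 genes. At a change of at least 2-fold, 9 members rose and 6 fell in 451Lu-R (all genes, 22.2% and 13.3%), and 11 rose and 6 fell in 1205Lu-R (all genes, 22.0% and 9.80%). Some of these members passed the filter only through the corin libraries, DNAJC6 and DNAJC28 in 451Lu-R and HSPB8, DNAJC28 and DNAJC5B in 1205Lu-R, and their tests are not used as support. Counted only over genes with at least 10 counts in both libraries of each group, a choice made after seeing the data, 7 of 55 members rose at least 2-fold in 451Lu-R (all such genes, 14.1%) and 8 of 56 in 1205Lu-R (all such genes, 14.0%). Their median log2 fold change was -0.06 in 451Lu-R and -0.04 in 1205Lu-R, beside 0.03 over all genes in each line. The libraries of the 2 treatments did not overlap for 52 of 57 members in 451Lu-R (all genes, 89.0%) and for 52 of 60 in 1205Lu-R (all genes, 88.6%).

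Of the 56 members tested in both lines, 22 fell in both and 17 rose in both. The share of all genes called alike in both lines is not given here, so these counts have no background beside them. Among the 17, DNAJC6 and DNAJC28 passed the filter in 451Lu-R through the corin libraries. Calls in a line of DNAJB4, DNAJB9, DNAJC16, HSPA5 and HSP90B1 were lost under alternatives given below. So were those of HSPA1A, HSPA1B and HSPA4 among the 22, and of DNAJC14 in 451Lu-R in DESeq2 (adjusted p = 0.132). DNAJA1 and DNAJB6 rose in 451Lu-R but fell in 1205Lu-R, and HSPA8 and HSPB8 did the opposite. DNAJC19 and DNAJC4 fell in 451Lu-R, DNAJA2 and DNAJC21 fell in 1205Lu-R, and DNAJB5, DNAJC10 and HSPA13 rose in 451Lu-R, each without passing in the other line. The difference between the lines passed its own test for these members except DNAJC19 (edgeR FDR = 0.177) and DNAJC4 (edgeR FDR = 0.0565). DESeq2 did not call that difference for DNAJC21 (adjusted p = 0.189) or DNAJB5 (adjusted p = 0.117). For DNAJC21 it was also lost with RLE size factors (edgeR FDR = 0.0711) and without the filter on low counts (edgeR FDR = 0.0977). Its size ran from -0.245 to -0.102 over the alternatives. DNAJA2 passed as higher in 451Lu-R with RLE size factors (edgeR FDR = 0.0378), a filter at a mean of 1 CPM (0.0460) and all 8 libraries in 1 fit (0.0231). The DNAJC19 call in 451Lu-R was lost in DESeq2 (adjusted p = 0.0637) and without corin library 1 (edgeR FDR = 0.166), and the DNAJC4 call in DESeq2 (adjusted p = 0.211) and without DMSO library 1 (edgeR FDR = 0.492) or corin library 1 (edgeR FDR = 0.0677). DNAJC12 was tested in 451Lu-R alone and rose, while HSPA2 was tested in 1205Lu-R alone and rose. DNAJC5B was tested in 1205Lu-R alone, through its corin libraries, and edgeR called it higher but DESeq2 did not (adjusted p = 0.0658). DNAJC15 and HSPA6 were tested in 1205Lu-R alone and did not pass. DNAJC18, DNAJC22, DNAJC25, DNAJC27 and the read-through genes DNAJC25-GNG10 and HSPE1-MOB4 passed in neither, and 8 members were tested in neither.

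**Figure D2:**
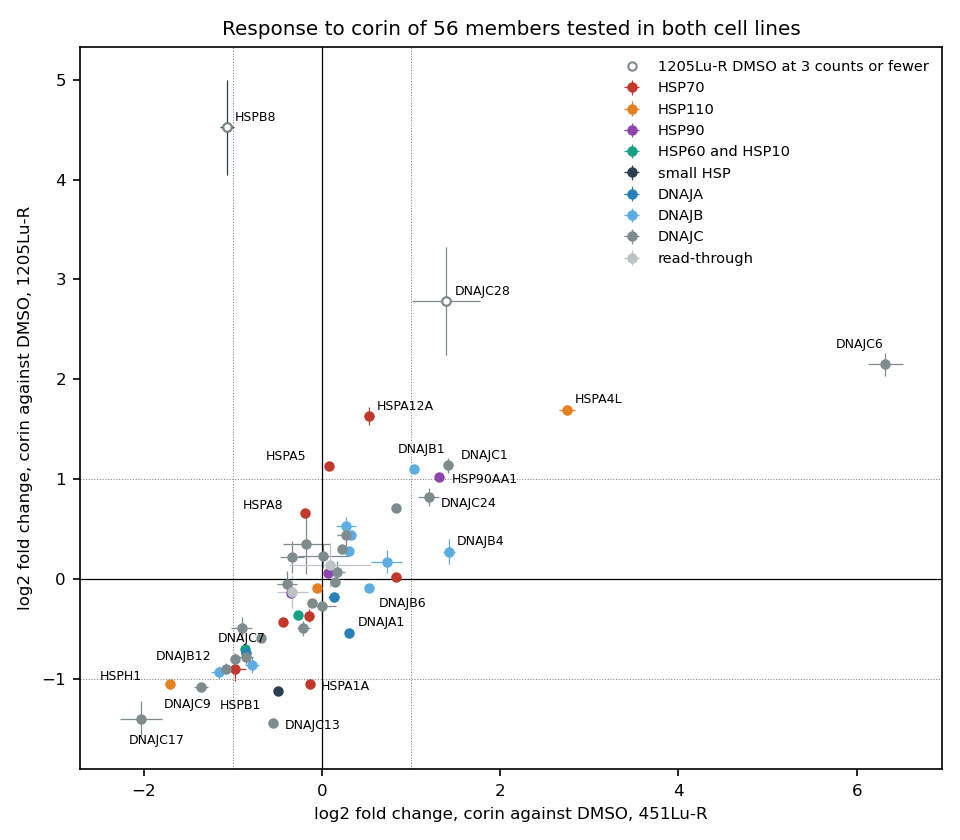
Log2 fold change under corin in 451Lu-R (x axis) and 1205Lu-R (y axis) for the 56 members tested in both lines, coloured by group, with standard errors as bars and dotted lines at 2-fold. HSPA4L, DNAJC6 and DNAJC28 lie far up on both axes, HSPH1 and DNAJC17 far down, and HSPB8 lies at -1.07 in 451Lu-R and far up in 1205Lu-R. The 2 open points, HSPB8 and DNAJC28, had at most 3 counts in each DMSO library of 1205Lu-R, so their place on the y axis is a fitted value and no measure of size.

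Promoters were examined for the letters known to bind HSF1 and the ER stress factors, because the members best known for answering to those factors moved in different directions. RefSeq promoter windows (250 bases before to 50 after the start, GRCh38.p14) were found for 63 of the 69 members. The heat shock element was searched as the units GAA, TTC and GAA, or TTC, GAA and TTC on the other strand, with any 2 bases between neighbouring units. It was in 6 member promoters (9.52%) and in 172 of 35116 promoters (0.49%). The holders were DNAJA1, DNAJB6, HSP90AA1, HSPA6, HSPA8 and HSPD1. No match was found for the other heat-inducible members, HSPA1A, HSPA1B, DNAJB1, HSPH1, HSPB1, HSPE1, HSP90AB1 and HSPA4L. The holders therefore do not stand for the heat-inducible members, and a missing match to this strict pattern does not show that HSF1 cannot bind. The ER stress element, searched on both strands as CCAAT, any 9 bases and CCACG, was in HSPA5 and HSP90B1 (3.17% of members) and in 27 promoters in all (0.0769%). The shorter TATA box (TATAAA, either strand) was in 14.3% of member and 11.5% of all promoters, and the CCAAT box, whose letters the ER stress element contains, in 36.5% and 34.6%. For 7 of these 8 genes, a stretch around a match that lies before the start is given below, on the strand of the gene and with the matching letters in capitals. The match of DNAJA1, which lies after the start, and a second match farther upstream in HSPA8 and in HSP90B1 are not shown.
HSP90AA1 (chr14:102087108-102087144, minus strand): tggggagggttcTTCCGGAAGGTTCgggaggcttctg
HSPA8 (chr11:123062167-123062203, minus strand): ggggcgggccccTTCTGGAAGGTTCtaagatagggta
HSPD1 (chr2:197500056-197500090, minus strand): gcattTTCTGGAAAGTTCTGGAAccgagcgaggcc
HSPA6 (chr1:161524454-161524490, plus strand): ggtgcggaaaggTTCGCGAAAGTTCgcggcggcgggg
DNAJB6 (chr7:157336861-157336897, plus strand): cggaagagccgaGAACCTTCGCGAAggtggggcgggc
HSPA5 (chr9:125241379-125241421, minus strand): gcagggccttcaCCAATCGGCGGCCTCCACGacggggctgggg
HSP90B1 (chr12:103930309-103930351, plus strand): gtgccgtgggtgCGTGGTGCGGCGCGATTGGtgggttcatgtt

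The genes with a match to these letters did not move as a block, and they leave out many members of the heat-inducible list. Of the 6 with a heat shock element, HSP90AA1 rose in both lines and HSPD1 fell in both. DNAJA1 and DNAJB6 rose in 451Lu-R but fell in 1205Lu-R, HSPA8 fell in 451Lu-R but rose in 1205Lu-R, and HSPA6 stayed near the floor. Of the 2 with an ER stress element, HSPA5 more than doubled in 1205Lu-R, and HSP90B1 changed by a log2 of 0.06 there. A match to these letters is a description of the sequence and not a measured binding site.

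The cytosolic HSP90 paralogs moved apart. HSP90AA1, which encodes the stress-inducible HSP90α, measured 2108 and 2115 CPM in the DMSO libraries and 5360 and 5291 CPM in the corin libraries of 451Lu-R. In 1205Lu-R it measured 1226 and 1225 CPM under DMSO and 2470 and 2467 CPM under corin. It rose in both lines with no overlap between treatments, by a log2 fold change of 1.31 (SE 0.016, edgeR FDR = 7.97e-23) and 1.02 (SE 0.011, edgeR FDR = 1.06e-25). HSP90AB1, which encodes the constitutive HSP90β, went from 1985 and 2014 to 1600 and 1598 CPM in 451Lu-R. In 1205Lu-R it went from 2563 and 2587 to 2319 and 2311 CPM. It fell in both lines, by 0.35 and 0.14 on the log2 scale. The result is a change of order in 451Lu-R, where HSP90AA1 stood at 654 and HSP90AB1 at 782.7 CPM per kb under DMSO and at 1650 and 626 CPM per kb under corin. HSP90AA1 shares exon sequence on the opposite strand with WDR20, and the counting was not stated to use strand.

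The HSP110 exchange factors also went in opposite directions. HSPH1, which is strongly heat-inducible, measured 305.3 and 309 CPM under DMSO and 99.6 and 91.8 CPM under corin in 451Lu-R. The 1205Lu-R libraries held 527 and 520.2 CPM under DMSO and 247 and 252 CPM under corin. Every corin library lay below every DMSO library of its line, and the gene fell by 1.70 (SE 0.036, edgeR FDR = 4.59e-19) and 1.05 (SE 0.030, edgeR FDR = 2.25e-18) on the log2 scale. HSPA4L, a paralog known for its role in testis and under osmotic stress, measured 12.2 and 10.1 CPM under DMSO and 78.6 and 74.5 CPM under corin in 451Lu-R. The 1205Lu-R libraries went from 41.1 and 38.3 to 125.7 and 129 CPM. It rose by 2.75 (SE 0.087, edgeR FDR = 2.35e-16) and 1.70 (SE 0.051, edgeR FDR = 5.35e-18). HSPA4, the third paralog, changed little, with log2 fold changes of -0.06 and -0.09, and its call in 451Lu-R did not hold. It was lost in DESeq2 (adjusted p = 0.164), with RLE size factors (edgeR FDR = 0.0917), with a filter at a mean of 1 CPM (edgeR FDR = 0.0568) and with all 8 libraries in 1 fit (edgeR FDR = 0.264). It was also lost when either DMSO library or corin library 1 was left out (edgeR FDR = 0.0714, 0.0753 and 0.351). Summed, the 3 genes took a smaller share of counts under corin, since HSPH1 and HSPA4 started higher than HSPA4L.

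Within HSP70, the stress-inducible pair HSPA1A and HSPA1B fell in edgeR, by little in 451Lu-R. HSPA1A stood at 109 and 112 CPM under DMSO and 99.6 and 106 CPM under corin in 451Lu-R, and at 105 and 113 CPM under DMSO and 51.2 and 52.8 CPM under corin in 1205Lu-R. The log2 fold changes were -0.13 (SE 0.045) and -1.05 (SE 0.052, edgeR FDR = 3.53e-14). HSPA1B had log2 fold changes of -0.15 and -0.36. In 451Lu-R DESeq2 called neither HSPA1A (adjusted p = 0.121) nor HSPA1B (adjusted p = 0.0554). The 2 genes are near-identical, so the split of reads between them is uncertain. With their counts added, the change was -0.14 (edgeR FDR = 0.000333) in 451Lu-R and -0.72 (edgeR FDR = 9.45e-14) in 1205Lu-R. Taken alone, the HSPA1A call in 451Lu-R was lost without DMSO library 2 (edgeR FDR = 0.0563) or corin library 1 (edgeR FDR = 0.225). HSPA6, an HSP70 gene that is nearly silent without heat, had at most 2 counts in any 451Lu-R library and 0.616 to 1.44 CPM in 1205Lu-R, where the treatments overlapped.

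HSPA8, the constitutive HSC70, was the most abundant member per kb without corin and answered differently in the 2 lines. In 451Lu-R it measured 2357 and 2359 CPM under DMSO and 2129 and 2082 CPM under corin. In 1205Lu-R it measured 2650 and 2653 CPM under DMSO and 4184 and 4128 CPM under corin. It fell by 0.19 (SE 0.017, edgeR FDR = 3.41e-09) in the first line and rose by 0.66 (SE 0.0066, edgeR FDR = 2.89e-26) in the second. HSPA14, a ribosome-associated HSP70, fell in both lines by 0.98 and 0.90 on the log2 scale. HSPA12A, a distant relative abundant in brain, went from 53.9 and 54.3 to 78.8 and 79.5 CPM in 451Lu-R and from 14.2 and 14.3 to 41.2 and 46.0 CPM in 1205Lu-R. It rose by 0.52 (SE 0.055) and 1.63 (SE 0.091, edgeR FDR = 3.10e-13).

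HSPA2, the testis-enriched HSP70 needed for sperm development, was a gene of 1 line. It had at most 4 counts in any 451Lu-R library. In 1205Lu-R it measured 53.6 and 55.0 CPM under DMSO and 214 and 215 CPM under corin, a rise of 1.996 on the log2 scale (SE 0.042, edgeR FDR = 9.64e-21). Under DMSO its level in 1205Lu-R was at least 178.5-fold higher than the floor in 451Lu-R.

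The heat-inducible list (13 genes, HSPA6 included) was split in both lines. It also holds HSPA8 and HSP90AB1, described above as constitutive, and HSPA4L, described by its role in testis and under osmotic stress. The counts that follow are therefore of a mixed list and not of strictly heat-induced genes. In 451Lu-R 4 of its 12 tested members rose and 8 fell, with a median log2 fold change of -0.17, beside 41.3% higher and 38.6% lower among all genes. In 1205Lu-R 4 of 13 rose, 8 fell and 1 did not pass, with a median of -0.36, beside 40.4% and 37.8% of all genes. HSP90AA1, DNAJB1 and HSPA4L rose in both lines, joined by DNAJA1 in 451Lu-R and HSPA8 in 1205Lu-R. HSP90AB1, HSPA1A, HSPA1B, HSPB1, HSPD1, HSPE1 and HSPH1 fell in both.

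**Figure D3:**
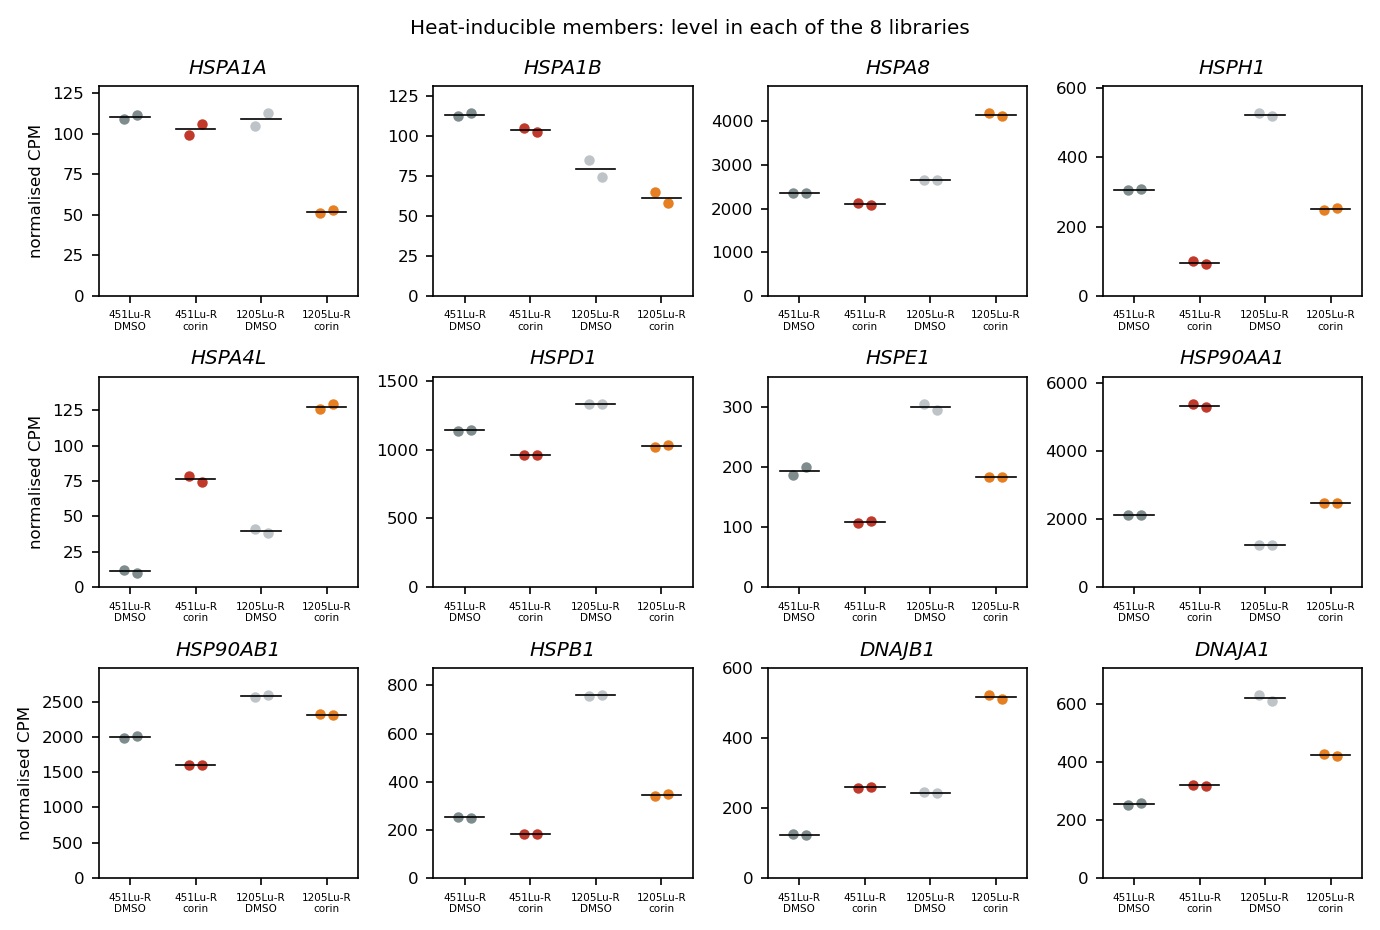
Normalised CPM (y axes from 0) of 12 members of the heat-inducible list in the 8 libraries, as points for DMSO (grey) and corin (red or orange) in 451Lu-R and 1205Lu-R, with a line at the mean of the 2 libraries of a group. HSP90AA1, HSPA4L and DNAJB1 stood higher and HSPH1, HSPB1 and HSPE1 lower under corin in both lines, while HSPA8 and DNAJA1 moved in opposite directions in the 2 lines.

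Among small heat shock proteins, only HSPB1 and HSPB8 were expressed enough to be tested. HSPB1 (HSP27) measured 254 and 250.3 CPM under DMSO and 183 and 182 CPM under corin in 451Lu-R, and 758 and 759 CPM under DMSO and 342 and 351 CPM under corin in 1205Lu-R. It fell by 0.49 (SE 0.030, edgeR FDR = 7.86e-12) and 1.12 (SE 0.028, edgeR FDR = 2.02e-19). HSPB8, the partner of BAG3 in selective autophagy of unfolded proteins, measured 43.9 and 40.3 CPM under DMSO and 20.4 and 20.5 CPM under corin in 451Lu-R, a fall of 1.07 (SE 0.081, edgeR FDR = 2.47e-10). In 1205Lu-R it had 1 and 3 counts under DMSO and 38 and 60 counts under corin, at least 17.0-fold higher. It passed the filter there only through the corin libraries, so its test is not used as support. HSPB6 and HSPB9 stayed at or under 8 counts in every library, and HSPB7 had none.

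In the ER, the HSP70 BiP stood out in 1 line. HSPA5, which encodes BiP and is a standard readout of the unfolded protein response, measured 601.5 and 614 CPM under DMSO and 659 and 642 CPM under corin in 451Lu-R. The 1205Lu-R libraries held 1141 and 1190 CPM under DMSO and 2532 and 2513 CPM under corin. The rise was 0.08 (SE 0.022, edgeR FDR = 0.00466) in 451Lu-R, a call lost without DMSO library 1 (edgeR FDR = 0.168) or corin library 1 (edgeR FDR = 0.0641), and 1.13 (SE 0.013, edgeR FDR = 2.87e-25) in 1205Lu-R. HSP90B1 (GRP94), the ER HSP90, is induced with BiP under ER stress. It went from 765 and 758 to 817 and 807 CPM in 451Lu-R and from 1222 and 1216 to 1260 and 1262 CPM in 1205Lu-R, log2 fold changes of 0.07 and 0.06. DESeq2 did not call the second (adjusted p = 0.187), nor did edgeR without the filter on low counts (FDR = 0.364).

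The J proteins of the ER lumen that serve BiP mostly moved upward, by small amounts except for DNAJC1. DNAJC1 (ERdj1) went from 52.8 and 49.8 to 138 and 141 CPM in 451Lu-R and from 28.5 and 25.9 to 57.7 and 60.8 CPM in 1205Lu-R, log2 fold changes of 1.42 and 1.14. DNAJB9 (ERdj4), DNAJB11 (ERdj3), DNAJC3 (p58IPK) and DNAJC16 rose in both lines by 0.23 to 0.53. DNAJC10 rose by 0.15 in 451Lu-R but did not pass in 1205Lu-R (-0.03, edgeR FDR = 0.405). The calls of DNAJB9 and DNAJC16 in 451Lu-R were lost in DESeq2 (adjusted p = 0.244 and 0.167) and on leaving out a library. The DNAJB9 call was lost without DMSO library 2 (edgeR FDR = 0.137), corin library 1 (0.0812) or corin library 2 (0.0736), and the DNAJC16 call without DMSO library 1 (0.206) or corin library 2 (0.114). HSPA13, an HSP70 of microsomes, went from 57.3 and 57.8 to 100.5 and 108 CPM in 451Lu-R, a rise of 0.83 (SE 0.052), and had a log2 fold change of 0.02 (SE 0.041) in 1205Lu-R. DNAJB12 and DNAJB14, which sit in the ER membrane with their J domain in the cytosol, fell in both lines by 0.79 to 1.16. Of the 13 members of the ER, 451Lu-R showed 9 that rose and 2 that fell, and 1205Lu-R 7 and 2, with medians of 0.17 and 0.07. Among all genes, 41.3% and 40.4% rose and 38.6% and 37.8% fell.

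The mitochondrial members mostly fell. HSPD1 went from 1135 and 1145 to 961 and 958.5 CPM in 451Lu-R and from 1330 and 1330 to 1017 and 1031 CPM in 1205Lu-R. HSPE1, its lid, went from 187 and 201 to 106 and 110.1 CPM and from 305.0 and 296 to 184 and 183 CPM. The falls were 0.27 and 0.36 for HSPD1 and 0.87 and 0.70 for HSPE1 on the log2 scale. The 2 genes lie head to head on chromosome 2 and overlap on opposite strands, so their reads could be shared. HSPA9 (mortalin), the mitochondrial HSP70, fell by 0.44 and 0.42. DNAJA3 (TID1), its J partner, fell by 0.85 and 0.74. DNAJC11, of the cristae-organising complex, fell by 0.98 and 0.80, and DNAJC30 by 0.90 and 0.49. DNAJC28 went the other way at low level, with 8 and 11 counts under DMSO and 30 and 20 counts under corin in 451Lu-R, and 2 and 3 counts under DMSO and 16 and 20 counts under corin in 1205Lu-R, at least 6.29-fold higher there. It passed the filter through the corin libraries in both lines, and its call in 451Lu-R (log2 fold change 1.39) was lost in DESeq2 (adjusted p = 0.0762) and without DMSO library 1 (edgeR FDR = 0.051) or corin library 1 (edgeR FDR = 0.0696). In all, 7 of 8 tested mitochondrial members fell in 451Lu-R, as did 6 of 9 in 1205Lu-R, with medians of -0.65 and -0.42. Of all genes tested, 38.6% and 37.8% fell in the same comparisons.

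**Figure D4:**
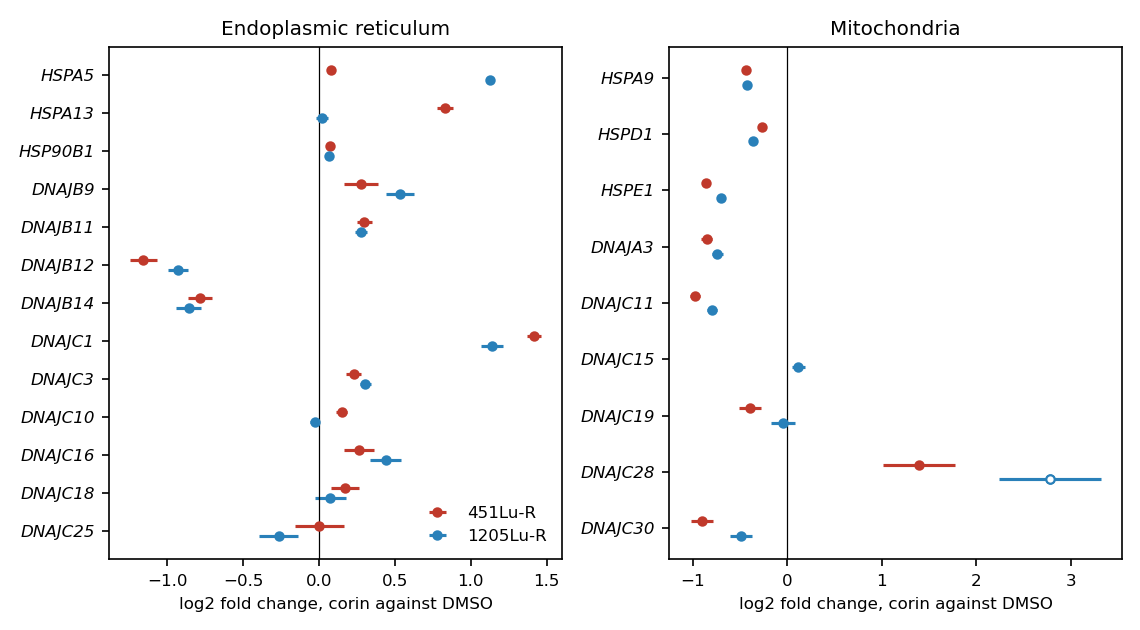
Log2 fold change under corin (x axes) of the members of the ER and of mitochondria in 451Lu-R (red) and 1205Lu-R (blue), with standard errors as bars and no point where a gene was not tested. HSPA5 and HSPA13 separate the lines, DNAJC1 rose and DNAJB12 and DNAJB14 fell in both, and the mitochondrial points lie below 0 except for DNAJC28 and DNAJC15. The open point is DNAJC28 in 1205Lu-R, fitted against 2 and 3 counts under DMSO.

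The J proteins of the cytosol and nucleus went in both directions. DNAJB1 (HSP40), the main heat-inducible partner of HSP70, measured 126 and 122 CPM under DMSO and 258 and 261 CPM under corin in 451Lu-R. The 1205Lu-R libraries held 245 and 241.5 CPM under DMSO and 522 and 510.1 CPM under corin. It roughly doubled in both lines, with log2 fold changes of 1.04 (SE 0.033, edgeR FDR = 1.97e-16) and 1.10 (SE 0.030, edgeR FDR = 1.38e-18). It overlaps TECR on the opposite strand. DNAJA1, a farnesylated partner of HSC70, went from 253 and 257 to 323 and 317 CPM in 451Lu-R and from 631 and 612 to 429 and 421.5 CPM in 1205Lu-R. It rose by 0.30 (SE 0.028, edgeR FDR = 4.36e-09) and fell by 0.53 (SE 0.028, edgeR FDR = 9.55e-14). DNAJB6, known for holding back polyglutamine aggregates, had log2 fold changes of 0.53 and -0.09. DNAJB4 went from 28.6 and 25.8 to 75.3 and 73.2 CPM in 451Lu-R, a rise of 1.42 (SE 0.069). In 1205Lu-R it stood at 19.0 and 14.3 CPM under DMSO and 18.3 and 21.5 CPM under corin. Its libraries overlapped there, and a call at the threshold (0.28, edgeR FDR = 0.0489) was lost in DESeq2 (adjusted p = 0.286) and without DMSO library 2 (edgeR FDR = 0.635) or corin library 2 (edgeR FDR = 0.330).

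Among the DNAJC genes, which share little beyond the J domain, DNAJC6 changed most in 451Lu-R. It encodes auxilin, which uncoats clathrin vesicles at nerve endings. It had 0.175 and 1.48 CPM under DMSO and 65.8 and 64.1 CPM under corin in 451Lu-R, and 7.43 and 6.93 CPM under DMSO and 31.13 and 32.04 CPM under corin in 1205Lu-R. In 451Lu-R these were 2 and 15 counts under DMSO and 747 and 618 counts under corin, so the gene passed the filter there only through the corin libraries. The fitted log2 fold change was 6.32 there, being 5.41 without DMSO library 1 and 8.42 without DMSO library 2, and is given as a description. In 1205Lu-R DNAJC6 rose by 2.15 (SE 0.11, edgeR FDR = 9.31e-14). DNAJC24, of the diphthamide pathway, rose by 1.20 and 0.82, and DNAJC5, the cysteine string protein of secretory vesicles, by 0.83 and 0.71. DNAJC12, a partner of the aromatic amino acid hydroxylases, went from 1.49 and 1.48 to 4.14 and 4.67 CPM in 451Lu-R.

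Other DNAJC genes fell in both lines. DNAJC9, a chaperone of histones H3 and H4, went from 49.2 and 50.7 to 19.1 and 20.5 CPM in 451Lu-R and from 97.7 and 97.5 to 45.8 and 45.9 CPM in 1205Lu-R, falls of 1.36 and 1.08. DNAJC13 (RME-8), which acts in endosomal sorting, went from 89.3 and 93.6 to 62.6 and 64.0 CPM and from 160 and 168 to 59.7 and 60.4 CPM. It fell by 0.55 (SE 0.052) in 451Lu-R and 1.44 (SE 0.045, edgeR FDR = 1.08e-17) in 1205Lu-R. DNAJC17 fell by 2.03 (SE 0.24) and 1.40 (SE 0.18), from levels of 7.63 to 12.8 CPM under DMSO. DNAJC7 (TPR2), whose repeats bind both HSP70 and HSP90, fell by 1.07 and 0.90. DNAJC2, which works at the ribosome, and DNAJC8, of the splicing machinery, fell in both lines by 0.59 to 0.85. DNAJC9, DNAJC17, DNAJC7, DNAJC2 and DNAJC24 overlap exons of other genes on the opposite strand. So do HSPA8, HSPA4L, HSPA12A, HSP90B1, DNAJB11, DNAJC11 and DNAJC16, among other members. On the same strand, DNAJB4 shares exon sequence with GIPC2 and HSPA14 with MSANTD7, so reads could be shared there too.

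Low members are accounted for as follows. In 451Lu-R 12 of the 69 members did not pass the filter, with at most 15 counts in any library, and in 1205Lu-R 9 did not pass, with at most 14. Of the 11 members grouped as restricted to muscle, testis or brain, 3 could be tested in 451Lu-R, and 4 in the other line. DNAJC6, HSPA12A and DNAJC12 rose in the first, and DNAJC6, HSPA12A, HSPA2 and DNAJC5B in the second, beside 41.3% and 40.4% of all genes. These members are low, and the count of those tested is no measure of the list. A low gene can pass the filter through the group in which it is high, and in 1205Lu-R this held for HSPB8, DNAJC28 and DNAJC5B, which had under 10 counts in each DMSO library, and in 451Lu-R for DNAJC6 and DNAJC28, with under 10 counts in 1 of the 2. DNAJC5B had 3 and 2 counts under DMSO and 9 and 17 counts under corin, at least 4.47-fold higher.

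The difference between the lines in the answer to corin was tested with an interaction term over the 8 libraries. Of 62 members tested, 27 differed (43.5%), beside 49.7% of all 16062 genes. The answer was higher in 1205Lu-R for 7 members (11.3%, all genes 22.6%) and lower for 20 (32.3%, all genes 27.1%). At least 2-fold, it was higher for 3 and lower for 3 (all genes, 9.34% and 9.46%). HSPA5 (1.015, SE 0.026, edgeR FDR = 3.88e-18), HSPA8 (0.81, SE 0.013, edgeR FDR = 3.72e-21) and HSPA12A (1.07, SE 0.10, edgeR FDR = 1.30e-08) answered more strongly upward in 1205Lu-R. HSPB8 is counted with them, but 1205Lu-R held only 1 and 3 of its counts under DMSO, so no size is given. HSPH1 also differed upward (0.61), being lowered less there. HSPA4L (-1.09), HSP90AA1 (-0.32) and DNAJC1 (-0.32) rose in both lines and more in 451Lu-R. The call for DNAJC1 was lost without 1205Lu-R DMSO library 1, where the difference was -0.25. DNAJC6 is counted as lower, but 451Lu-R held only 2 and 15 of its counts under DMSO, so no size is given. HSPA1A (-0.96), DNAJC13 (-0.92) and HSPB1 (-0.66) fell in both and more in 1205Lu-R, with HSPA1A subject to the uncertain split named above. For DNAJB1 the estimated difference was 0.02 (SE 0.048), and for HSPA9 -0.03 (SE 0.038), and neither passed.

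The lines also differed before treatment. Under DMSO, 40 of 62 members (64.5%) were higher in 1205Lu-R and 13 (21.0%) lower, beside 38.2% and 37.2% of all genes. At least 2-fold, 13 were higher and 5 lower (all genes, 19.3% and 20.4%). Of these 18, some passed the filter through 1 line alone, and DNAJC5B, with no count in 451Lu-R and with 3 and 2 counts in the 1205Lu-R libraries, was at the floor in both. Over genes with at least 10 counts in every DMSO library, 8 of 53 members were at least 2-fold higher and 2 lower (all such genes, 15.0% and 16.4%). The median log2 difference was 0.40 over the members and 0 over all genes to 2 decimals. HSPB1 (1.59), DNAJB6 (1.85), DNAJA1 (1.28), HSPA4L (1.82), HSPA13 (1.44), DNAJB1 (0.97), HSPA5 (0.94) and HSPH1 (0.77) were higher in 1205Lu-R. HSP90AA1 (-0.79) and HSPA12A (-1.93) were lower. Some members were a matter of presence. DNAJC15, a mitochondrial J protein, stood at 46.1 and 45.3 CPM in 1205Lu-R and at 0 to 1 counts in 451Lu-R, at least 150.2-fold higher. HSPB8 was at least 159.7-fold, and DNAJC12 at least 5.62-fold, lower in 1205Lu-R. With 2 lines, the lines' other differences, the melanocyte markers among them, cannot be told apart from this contrast.

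The factors and helpers around the members were described from lists of other genes. HSF1, the master factor of the heat shock response, went from a mean of 114 ± 2.6 (SD, n = 2) to 63.9 ± 2.3 CPM in 451Lu-R and from 267 ± 4.9 to 134 ± 5.6 CPM in 1205Lu-R. It fell by 0.86 (SE 0.048, edgeR FDR = 2.03e-12) and 0.98 (SE 0.037, edgeR FDR = 3.08e-16). HSF2, its paralog, went from 10.8 ± 0.50 to 21.7 ± 3.9 CPM and from 8.24 ± 0.085 to 16.2 ± 0.046 CPM, rises of 0.996 and 0.985. Of 22 co-chaperones of HSP70 and HSP90, 451Lu-R showed 6 that rose and 13 that fell (all genes, 41.3% and 38.6%), and 1205Lu-R 3 and 17 (all genes, 40.4% and 37.8%). The same shares of all genes stand beside the next lists. BAG3, an exchange factor induced by HSF1, rose by 1.61 and 0.46, and FKBP5, an HSP90 partner in steroid receptor complexes, by 1.91 and 1.85. SUGT1 rose by 1.27 in 451Lu-R, while HSPBP1 fell by 1.13 in 451Lu-R and the ubiquitin ligase STUB1 (CHIP) by 1.09 in 1205Lu-R. In the cytosolic chaperonin CCT, 6 of 8 subunits fell and 1 rose in each line. All 6 prefoldin subunits fell in 451Lu-R, PFDN1 by 1.24, and 5 fell and 1 rose in 1205Lu-R. Of 14 other ER folding genes, 451Lu-R showed 3 that rose and 9 that fell, and 1205Lu-R 5 and 8. Of 5 other mitochondrial chaperones, 451Lu-R showed 1 that rose and 1 that fell, and 1205Lu-R 2 of each. CRYAB, a small heat shock protein of the crystallin series, rose by 1.65 in 451Lu-R from a mean of 1.29 CPM, and was at 0 under DMSO in 1205Lu-R.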

How the data were processed

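RNA-Seq libraries of 451Lu-R and 1205Lu-R cells were analysed, 2 per group. The authors trimmed reads with Trimmomatic and quantified them with Salmon on GENCODE 32, per the labels and the study's methods, and deposited the expected counts that Salmon estimates, summed to genes and not normalized. Their deposited tables for PLX4032 with corin hold the authors' own log2 fold changes and adjusted p-values and were not used. Members and lists were chosen with earlier results of these data known.

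Estimated counts were rounded to whole numbers. Genes were matched to GENCODE 44 (34052 of 34228), which gave symbols, canonical transcript lengths and overlaps. Each comparison was fitted over all genes with edgeR 4.0.16 in R 4.3.3 (filterByExpr, TMM, glmQLFit, glmQLFTest, 2-sided, Benjamini-Hochberg). "Rose" and "fell" mean an FDR under 0.05, and 2-fold means an absolute log2 fold change of at least 1 as well. SEs are the log2 fold change divided by the root of F. Treatments were compared within each line on 4 libraries, and the lines on all 8. Folds against a group with at most 3 counts in each library divide the other group's mean CPM, before TMM scaling, by the mean level of 3 counts. They are lower bounds for the ratio of the group means and not for each library. Named were members of the heat-inducible, ER, mitochondrial, HSP90, HSP110 and small HSP lists and members changed at least 2-fold in a line or in the interaction, and from the other lists, genes changed at least 2-fold, HSF1 and HSF2. Other members named in the text, among them HSPA14, DNAJB6, DNAJC5, DNAJC2, DNAJC8 and DNAJC22, were chosen after their values were seen. Between the 2 libraries of a group, the chi-square per degree of freedom of the counts was 1.34 to 1.40, where sampling alone gives about 1. Deviations of libraries with the same number correlated at 0.03 (451Lu-R), -0.08 (1205Lu-R) and 0.135 (DMSO libraries of the 2 lines), and with 2 pairs each and no shared source in the labels the numbers were not taken to pair libraries. Alternatives were DESeq2 1.42.0, other size factors, other filters on low counts, all 8 libraries in 1 fit, HSPA1A and HSPA1B summed, a replicate block, leaving out each library and, added after seeing the data, counting only members with at least 10 counts in both libraries of each group compared. The labels give no sequencing batch. Protein sequences were not used here.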

Additional observations from a re-analysis of the deposited data

Results flagged for a closer look

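For 9 members the answer to corin differed between the lines by the interaction term, and either the difference was at least 2-fold or the gene rose in 1 line and fell in the other. Values are log2 differences (1205Lu-R minus 451Lu-R). Upward differences were found for HSPB8 (5.56), HSPA12A (1.07), HSPA5 (1.01) and HSPA8 (0.81). Downward differences were found for DNAJC6 (-4.21), HSPA4L (-1.09), DNAJB4 (-1.18), DNAJA1 (-0.88) and DNAJB6 (-0.65). Without 451Lu-R DMSO library 1 or 2 the difference for DNAJC6 was -3.33 or -6.31, and without 1205Lu-R DMSO library 1 or 2 that for HSPB8 was 4.97 or 6.49, both resting on low counts in those libraries. The values for HSPB8 and DNAJC6 are fitted against DMSO libraries of 1 and 3 counts and of 2 and 15 counts, and are no measure of size.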

How the results depend on the processing

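Over the alternatives run, the counts of members called stayed within 1.5 times those reported, with exceptions under 2 settings. Over members with at least 10 counts in every DMSO library, a choice made after seeing the data, 8 in place of 13 were at least 2-fold higher in 1205Lu-R and 2 in place of 5 lower, since fewer members were counted. Members answering at least 2-fold more upward in 1205Lu-R numbered 3, and 5 without 451Lu-R corin replicate 1 (2 to 5 on leaving out any library). With a library left out, its group rests on 1 sample, which is assumed to vary like the others. Under the alternatives, members that rose numbered 21 to 25 in 451Lu-R and 18 to 22 in 1205Lu-R, and those that fell numbered 20 to 27 (451Lu-R) and 25 to 27 (1205Lu-R). Labels share replicate numbers, so a replicate block was tried. It gave 23 higher and 26 lower members (451Lu-R), and 21 and 26 (1205Lu-R), the same counts as without pairing. Between the lines under DMSO it gave 39 members higher and 13 lower, against 40 and 13. Every member tested for corin within a line was followed through the alternatives. Direction changed for 4 of the 57 tested in 451Lu-R, and for 6 of the 60 in the other line, none of which had passed there. Without a filter on low counts, DNAJC22 (0.02) was -0.0027 and DNAJC25 (0.00) -0.0165 in 451Lu-R, and HSPA13 (0.02) was -0.0282 in 1205Lu-R, where DESeq2 gave it -0.0135. On leaving out a library of 451Lu-R, DNAJC22 ran from -0.1539 to 0.1735, DNAJC25 from -0.1945 to 0.2347, DNAJC27 from -0.4306 to 0.148 and HSPE1-MOB4 from -1.07 to 1.169. In 1205Lu-R, HSPA13 ran from -0.0451 to 0.0667, DNAJC18 from -0.0656 to 0.2113, DNAJC19 from -0.2121 to 0.112, DNAJC25-GNG10 from -0.2964 to 0.0046, HSPA6 from -1.044 to 0.1628 and HSPE1-MOB4 from -0.2746 to 0.6583. The cause was not tested. Depth limits the members under about 10 counts.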
